A study of Mus musculus with 50 samples.

Results

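The thyrotropin receptor gene Tshr and the 4 transcription factor genes Pax8, Nkx2-1, Foxe1 and Hhex were followed through mouse thyroids treated with antibodies that block Notch signalling. These 5 genes were taken by symbol from a count table of 52636 genes and not by their values, though earlier results of these data were known. RNA was sequenced from 50 thyroid libraries of male C57BL/6 mice, which form 10 groups of 5. Mice were 10 to 12 weeks old by the series text, and up to 14 weeks by the protocol of the labels. Every group received 1 intraperitoneal dose of antibody. The control antibody was an isotype against ragweed (RW, 40 mg/kg), given to mice whose thyroids were collected at 15 hours, 5 days or 7 days. Antibodies to the ligands Jag1 and Jag2 (aJ1aJ2) were dosed at 20 mg/kg each, with groups at 15 hours, 5 days and, in 2 separate sets, 7 days. Antibodies to the receptors Notch1 and Notch2 (aN1aN2, 5 and 10 mg/kg) were studied at 15 hours and 5 days. The triple combination with an antibody to Notch3 (aN1aN2aN3, 5, 10 and 20 mg/kg) was studied at 7 days, in a second 7-day set that holds aJ1aJ2 but no RW libraries. Thyroxine and triiodothyronine injections are also described for the series, and the labels do not name the recipients. Each library is labelled as a numbered thyroid. The labels do not state that the numbers are separate mice, so p-values describe the spread between these libraries.

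Thyrotropin (TSH) from the pituitary binds the G protein-coupled receptor Tshr on follicular cells, and the receptor signals mainly through cAMP to thyroid growth and hormone synthesis. The paired-domain factor Pax8, the homeodomain factors Nkx2-1 and Hhex and the forkhead factor Foxe1 are jointly present in thyroid precursors and in mature follicular cells. Pax8 and Nkx2-1 act on the genes for thyroglobulin and thyroperoxidase, Nkx2-1 is also made by calcitonin-producing C cells, and Hhex and Foxe1 are best known for their part in forming and moving the gland in the embryo.

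Promoter windows of 3 of the 5 genes were present in the RefSeq table used (build GRCm38.p6), and each covers the 250 bases before the annotated start. Tshr and Foxe1 had no window there, so only those of Pax8, Nkx2-1 and Hhex are shown. The windows lie at chr2:24475600-24475849 on the minus strand for Pax8, at chr12:56536909-56537158 on the minus strand for Nkx2-1, and at chr19:37434591-37434840 on the plus strand for Hhex. Capitals mark CAAG on either strand (CTTG where it lies on the other strand), the core that NKX2-1 recognises.
Pax8: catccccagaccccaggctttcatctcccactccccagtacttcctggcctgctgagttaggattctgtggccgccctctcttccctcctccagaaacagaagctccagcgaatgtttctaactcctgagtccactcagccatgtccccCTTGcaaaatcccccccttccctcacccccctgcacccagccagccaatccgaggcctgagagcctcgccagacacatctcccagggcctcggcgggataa
Nkx2-1: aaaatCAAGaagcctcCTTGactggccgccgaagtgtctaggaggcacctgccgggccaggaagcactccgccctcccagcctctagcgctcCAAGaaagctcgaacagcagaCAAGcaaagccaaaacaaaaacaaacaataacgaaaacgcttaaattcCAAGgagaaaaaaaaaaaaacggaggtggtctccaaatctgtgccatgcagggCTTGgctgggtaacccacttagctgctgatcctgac
Hhex: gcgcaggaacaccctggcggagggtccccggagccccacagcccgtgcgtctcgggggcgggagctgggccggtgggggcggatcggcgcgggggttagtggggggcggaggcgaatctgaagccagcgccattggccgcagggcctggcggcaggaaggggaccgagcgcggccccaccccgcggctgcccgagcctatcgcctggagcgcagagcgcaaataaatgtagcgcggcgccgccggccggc
The Nkx2-1 window holds 6 CAAG matches, that of Pax8 holds 1, and that of Hhex holds 0. CAAG occurs in 86.6% of all 32851 windows of this length, so its presence is common. The core of the Notch effector RBPJ (TGGGAA) and the cAMP response element (TGACGTCA, and its TGACG part) were searched on both strands and matched none of the 3 windows, against 21.6%, 1.55% and 17.8% of all windows. The windows differ in composition, with 60.4% G and C in Pax8, 50.8% in Nkx2-1 and 76.0% in Hhex, beside a median of 52.4%.

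Libraries held 15.3 to 52.8 M counts (M, 1e6). Sample IDs fall into 4 runs of numbers: the first 7-day set, RW and aJ1aJ2 at 15 hours, aN1aN2 at 15 hours together with all 5-day groups, and the second 7-day set. The follicular product thyroglobulin (Tg) took 8.87 to 36.5% of counts in the first run, 14.5 to 34.9% in the second, 0.450 to 42.4% in the third and 1.15 to 6.50% in the fourth. A list of 9 skeletal muscle genes took 0.0433 to 14.9% of counts. Libraries RW 5 days replicate 3 and aJ1aJ2 5 days replicate 3 stood apart, with Tg at 0.450% and 2.39% of counts and muscle genes at 14.9% and 10.6%. In whole tissue, fewer follicular cells and less RNA per follicular cell cannot be told apart.

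Every one of the 5 genes was detected in every library. Counts per library ran from 97 to 9441 for Tshr, 149 to 25545 for Pax8, 88 to 9494 for Nkx2-1, 26 to 8330 for Foxe1 and 67 to 5004 for Hhex. Levels are given below as CPM, counts per 1e6 counts of a library, after TMM scaling over all libraries, as mean ± SD of 5. To compare genes with each other, CPM was divided by the annotated exon length in kilobases. On that scale the median library had 59.4 for Pax8, 57.6 for Nkx2-1, 32.3 for Foxe1, 13.7 for Hhex and 11.3 for Tshr. The receptor was the lowest of the 5 in 30 of 50 libraries and the highest in 0, whereas Pax8 was highest in 25, Nkx2-1 in 20 and Foxe1 in 5. The deposited FPKM values place Tshr much lower, at a median of 0.409 against 32.2 for Foxe1, and they were found to be scaled to the whole span of a gene with its introns, which is 165.0 kb for Tshr and 2.80 kb for the intronless Foxe1. If intron reads were counted, CPM per exon kilobase is too high for Tshr and Pax8.

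**Figure D1:**
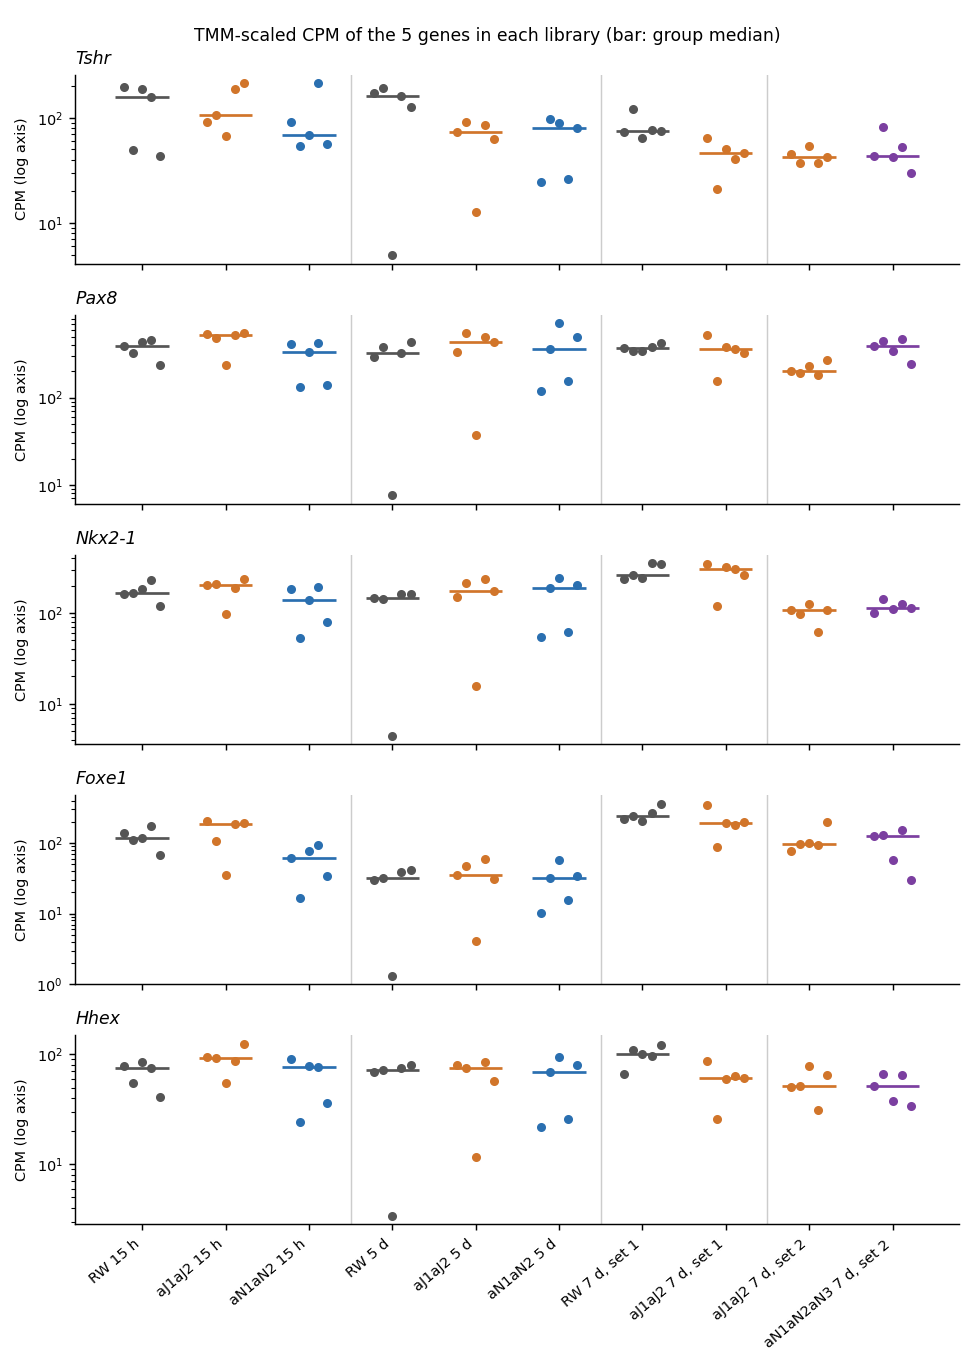
TMM-scaled CPM on a log axis for each of the 5 genes (panels), with 1 point per library, 10 groups of 5 along the horizontal axis and a bar at the group median. RW 5 days replicate 3 is the lowest library for all 5 genes, and Foxe1 is low in the 3 groups at 5 days.

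Tshr was highest at 15 hours and in RW at 5 days, and lowest at 7 days under the antibodies. Its group means in descending order were 134 ± 63.9 CPM in aJ1aJ2 at 15 hours, 132 ± 75.0 in RW at 5 days, 127 ± 75.3 in RW at 15 hours and 96.8 ± 67.1 in aN1aN2 at 15 hours. Below these came RW at 7 days with 82.0 ± 22.2, aJ1aJ2 at 5 days with 65.2 ± 31.4, aN1aN2 at 5 days with 63.5 ± 35.4, aN1aN2aN3 with 50.3 ± 19.8, and the first and second aJ1aJ2 sets at 7 days with 44.5 ± 15.6 and 43.2 ± 7.11. No neighbours in this order differed beyond their spread. The same was true of all 9 neighbouring pairs for each of the other 4 genes, whose ranges overlapped and whose means differed by less than the larger SD.

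Pax8 had a ratio of 2.16 between its highest and lowest group means. The order was aJ1aJ2 at 15 hours (466 ± 132 CPM), aN1aN2aN3 (379 ± 90.6), RW at 7 days (373 ± 31.1), aJ1aJ2 at 5 days (371 ± 205), aN1aN2 at 5 days (369.5 ± 246) and RW at 15 hours (369 ± 90.3). It ended with the first aJ1aJ2 set at 7 days (350.2 ± 134), RW at 5 days (288 ± 166), aN1aN2 at 15 hours (287 ± 141) and the second aJ1aJ2 set (216 ± 36.0). Nkx2-1 was highest in the first 7-day set, with 289.7 ± 55.9 CPM in RW and 273 ± 91.5 in aJ1aJ2. It was followed by aJ1aJ2 (187 ± 53.6) and RW (172 ± 39.3) at 15 hours, aJ1aJ2 (159 ± 86.9) and aN1aN2 (150.0 ± 86.3) at 5 days, aN1aN2 at 15 hours (130.2 ± 62.3), RW at 5 days (124 ± 67.6), aN1aN2aN3 (119 ± 15.6) and the second aJ1aJ2 set (100.5 ± 23.3).

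Foxe1 had the widest span of group means among the 5 genes, a 9.02-fold ratio, and it followed the runs of sample IDs. The first 7-day set had 259.7 ± 62.3 CPM in RW and 203 ± 93.7 in aJ1aJ2, and the 15-hour run had 146 ± 73.3 in aJ1aJ2 and 122 ± 39.8 in RW. The second 7-day set had 113 ± 49.6 in aJ1aJ2 and 99.1 ± 53.1 in aN1aN2aN3. The third run was lowest, with 56.4 ± 31.0 in aN1aN2 at 15 hours, 35.2 ± 20.4 and 28.8 ± 16.0 in aJ1aJ2 and RW at 5 days, and a range of 10.1 to 57.6 in aN1aN2 at 5 days. Among controls alone, Foxe1 read 203 to 362 CPM at 7 days, 66.9 to 174 at 15 hours and 1.32 to 41.8 at 5 days. The share of all genes whose controls separate in this way was not counted. Between the aJ1aJ2 sets at 7 days, 43.6% of genes had groups that do not overlap. Time and run of sample IDs cannot be told apart in these controls. Foxe1 exons share 102 bases with Gm12446 on the opposite strand, a gene with 31692 counts in all libraries beside 142315 for Foxe1, and the use of strand in counting is not given in the sources used here.

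Hhex had the narrowest span, a ratio of 1.95. Its means were 99.2 ± 20.8 CPM in RW at 7 days, 90.9 ± 25.3 in aJ1aJ2 and 67.3 ± 18.6 in RW at 15 hours, 61.8 in aJ1aJ2 at 5 days (range 11.6 to 84.8), 61.3 ± 29.1 in aN1aN2 at 15 hours and 59.7 ± 31.7 in RW at 5 days. The first aJ1aJ2 set at 7 days had 59.2 ± 21.5, aN1aN2 at 5 days 58.6 ± 33.2, the second aJ1aJ2 set 55.5 ± 17.6 and aN1aN2aN3 50.9 ± 14.8.

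Within groups the 5 genes rose and fell together from library to library. After subtraction of group means, log2 CPM of the 10 gene pairs correlated with a Pearson r of 0.863 (Tshr with Foxe1) to 0.979 (Pax8 with Nkx2-1) over 50 libraries, and Spearman rho was 0.757 to 0.932. Each pair had a permutation p of 1e-05, the smallest that 100000 permutations within groups can give, and an adjusted p of 1e-05 over the 10 pairs. This test is against no correlation at all, and does not compare the pairs with other genes. Leaving out RW 5 days replicate 3 and aJ1aJ2 5 days replicate 3, the libraries farthest from the median, lowered r to 0.747 to 0.946. Within runs, r was 0.764 to 0.935 in the first 7-day set, 0.633 to 0.956 at 15 hours for RW and aJ1aJ2, and 0.943 to 0.992 in aN1aN2 at 15 hours with the 5-day groups. The second 7-day set was looser. There Pax8 and Foxe1 kept r = 0.938 (permutation p = 0.00196, n = 10), while Pax8 with Nkx2-1 had r = 0.436 (permutation p = 0.151) and Nkx2-1 with Foxe1 had r = 0.175 (permutation p = 0.569).

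**Figure D2:**
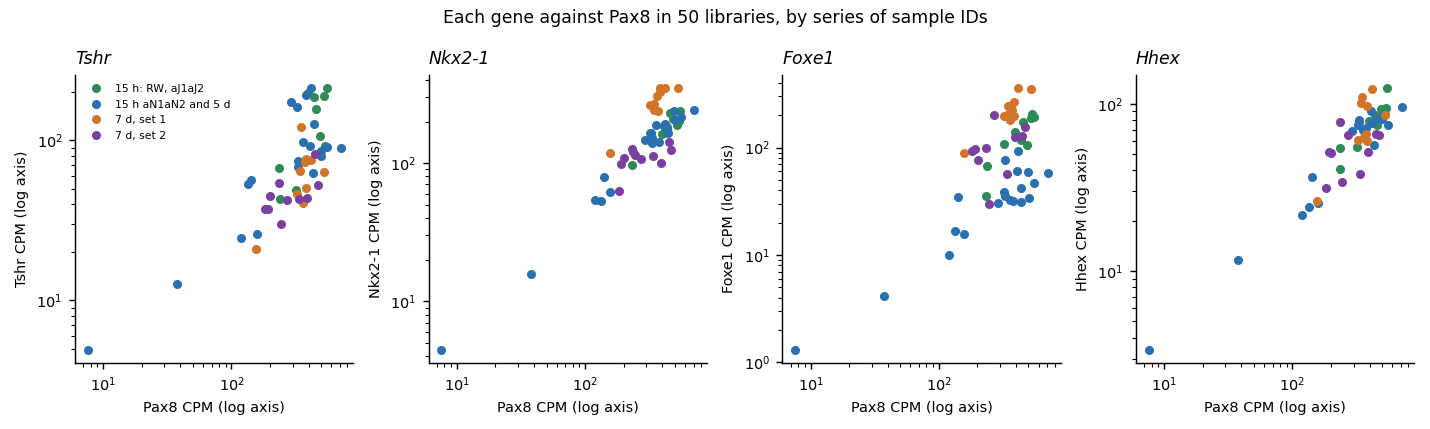
CPM of Tshr, Nkx2-1, Foxe1 and Hhex against Pax8 in the same library (log axes, 50 points, coloured by run of sample IDs). The 2 lowest points are RW 5 days replicate 3 and aJ1aJ2 5 days replicate 3, and Foxe1 separates by run at a given level of Pax8.

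Over all libraries the shared variation ran with Tg and, inversely and less closely, with skeletal muscle genes. Centred in the same way, Tg correlated with Pax8 at r = 0.977, with Nkx2-1 at 0.961, with Hhex at 0.932, with Foxe1 at 0.890 and with Tshr at 0.877. In the second 7-day set alone these were 0.817 for Pax8, 0.780 for Foxe1, 0.597 for Hhex, 0.518 for Tshr and 0.356 for Nkx2-1. The summed skeletal muscle genes correlated negatively, from r = -0.692 for Nkx2-1 to -0.586 for Foxe1, while in the second 7-day set r was 0.008 for Tshr, 0.189 for Pax8, 0.270 for Foxe1, -0.220 for Hhex and -0.520 for Nkx2-1. Pax8 and Nkx2-1 act on the Tg gene, so r with Tg cannot stand for tissue makeup alone. The part of tissue makeup in the correlations between the genes was not tested.

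Among 21545 genes, those with the pattern most like Pax8 were the transporter gene Slc4a5 (r = 0.983), the potassium channel gene Kcnh3 (0.981) and Nkx2-1 itself (0.979). Nkx2-1 was most like Kcnip3 (0.981), Sfta3-ps (0.980) and Slc23a1 (0.979), and Hhex most like Galns (0.971), Ero1lb (0.969) and Nkx2-1 (0.967). Foxe1 was most like Kcnh3 (0.967), Fam171a2 (0.946) and Afap1l2 (0.944). Tshr was most like the ceramide synthase gene Cers6 (0.969), Slc41a2 (0.960) and Lrrc8d (0.956), with Hhex in place 52, Pax8 in place 71, Nkx2-1 in place 140 and Foxe1 in place 458. Tshr itself came in place 444 for Pax8, 588 for Nkx2-1, 331 for Foxe1 and 311 for Hhex. Foxe1 came in place 204 for Pax8, 526 for Nkx2-1 and 182 for Hhex, while Pax8 was in place 7 for Foxe1. Without the 2 outlying libraries Kcnh3 ranked first for both Pax8 (0.943) and Foxe1 (0.940), Galns first for Hhex (0.921), and Cers6 second for Tshr (0.926), while the first gene for Nkx2-1 became Abhd14b (0.953). Both genes of a pair were read in the same libraries, which differ in depth and tissue makeup.

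At 15 hours none of the 5 genes passed the test under aJ1aJ2. Tshr read 91.8, 107, 67.4, 190.1 and 213 CPM in the 5 aJ1aJ2 libraries and 197, 49.1, 188, 157 and 43.3 in RW, and both groups spanned high and low values. Pax8 read 537, 488, 234, 523 and 551 CPM in aJ1aJ2 and 395, 321, 438, 455 and 237 in RW. Hhex read 93.9, 93.5, 54.4, 87.4 and 125 CPM in aJ1aJ2 and 79.3, 55.2, 85.7, 75.2 and 40.9 in RW. For both genes 4 of the 5 aJ1aJ2 libraries lay above every RW library, and replicate 3 lay low. Fold changes and tests below are from edgeR's quasi-likelihood test on all genes, as log2 of antibody over control, called at an adjusted p below 0.05. Estimates ran from 0.07 (SE 0.51) for Tshr to 0.43 (SE 0.34) for Hhex. The 95% intervals reached from -1.03 to 1.17 for Tshr and from -0.40 to 1.07 for Pax8. None of the 5 was called, beside 0.573% of 18513 genes, and none had groups that do not overlap, beside 1.72%.

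**Figure D3:**
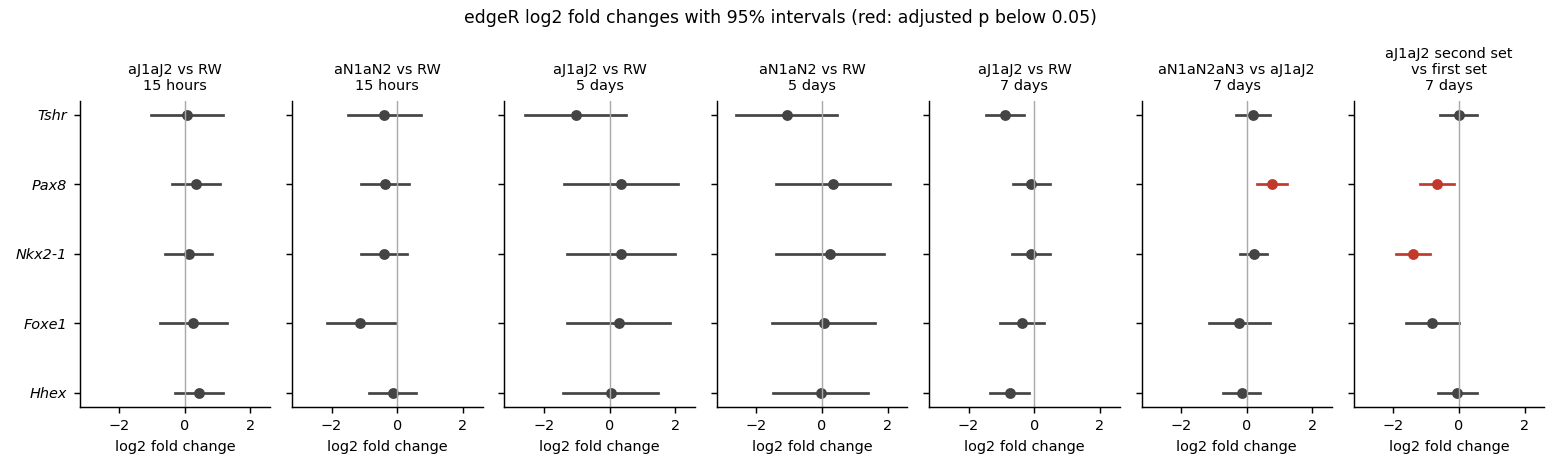
Log2 fold changes (points) with 95% intervals (lines) from edgeR for the 5 genes (rows) in 7 comparisons (panels), with called genes in red. Calls are Pax8 in aN1aN2aN3 against aJ1aJ2, and Pax8 and Nkx2-1 between the aJ1aJ2 sets, while intervals at 5 days are the widest.

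Under aN1aN2 at 15 hours Foxe1 was the gene farthest from control, short of a call. It read 61.0, 16.7, 77.3, 92.7 and 34.5 CPM against 141, 109, 118, 174 and 66.9 in RW. All 5 antibody libraries lay below the RW mean, and the groups overlapped only through RW replicate 5. The log2 change was -1.12 (SE 0.48, 95% interval -2.15 to -0.08; edgeR adjusted p = 0.310). Tshr (-0.40, SE 0.51), Pax8 (-0.37, SE 0.34), Nkx2-1 (-0.41, SE 0.33) and Hhex (-0.14, SE 0.33) were nearer to control. None of the 5 was called, beside 1.68% of genes, and none had groups that do not overlap, beside 5.21%. Foxe1 to Pax8, a ratio within each library, was 0.149, 0.124, 0.234, 0.221 and 0.245 in aN1aN2 and 0.358, 0.339, 0.269, 0.384 and 0.282 in RW. These ratios did not overlap, as was the case in that direction for 0.637% of genes. With the other follicular epithelial markers as a covariate, an alternative chosen after seeing the data, Foxe1 was called at -1.05 (edgeR adjusted p = 0.0442). Over the alternatives 186 to 935 genes in all were called in this comparison. These aN1aN2 libraries belong to the run of the 5-day groups, whose Foxe1 is low also under RW, so antibody and run cannot be told apart. The sum of 5 liver genes was 47.6 to 207 CPM in RW, 1.31 to 2.11 in aN1aN2 and, in the same run as RW, 5.69 to 17.6 in aJ1aJ2, and their part in the result was not tested.

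At 5 days Tshr was lower under both antibodies in all 5 libraries against the RW mean, without passing the test. RW read 174, 192, 4.93, 163 and 127 CPM, aJ1aJ2 73.9, 91.4, 12.6, 85.4 and 62.6, and aN1aN2 24.5, 97.3, 89.1, 26.0 and 80.5. Apart from replicate 3 of RW, every RW library exceeded every antibody library. The log2 change was -1.03 (SE 0.72) for aJ1aJ2 (edgeR adjusted p = 0.600) and -1.07 (SE 0.72) for aN1aN2 (edgeR adjusted p = 0.747). Both contrasts use the same RW libraries. Library quality weights in limma, which give less weight to aberrant libraries, called Tshr for both, at -1.08 (adjusted p = 0.0148) and -1.03 (adjusted p = 0.0401). With these weights 3475 and 1507 of 18434 genes were called, against 33 and 0 in edgeR. A skeletal muscle covariate in edgeR moved the estimates to -0.61 and -0.24, with adjusted p of 0.454 and 0.782. The epithelial covariate gave -0.81 and -0.98 (edgeR adjusted p = 0.0937 and 0.0731), and leaving out the 2 low-Tg libraries gave -1.06 and -1.38 (edgeR adjusted p = 0.219 and 0.0926).

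None of the transcription factors passed the test at 5 days. Pax8 read 291, 378, 7.57, 324 and 439 CPM in RW, 329.5, 557, 37.6, 497 and 435 in aJ1aJ2, and 119.6, 358, 712, 157 and 501 in aN1aN2. The 3 groups overlapped, and replicate 3 was the lowest in RW and in aJ1aJ2. The 8 estimates for the 4 factors lay between -0.04 (Hhex, aN1aN2) and 0.36 (Pax8, aJ1aJ2), with SE of 0.67 to 0.81. With the skeletal muscle covariate the estimates for aN1aN2 were 1.33 for Pax8, 1.15 for Nkx2-1, 0.83 for Foxe1 and 0.69 for Hhex, and those for aJ1aJ2 were 0.46 (Hhex) to 0.78 (Pax8), none called by edgeR. For aJ1aJ2 0 of the 5 genes were called, beside 0.179% of 18434 genes, and 0 had groups that do not overlap, beside 3.75%. For aN1aN2 edgeR called 0 of 18434 genes, or 0%, while 1848 had an unadjusted p below 0.05 and the quality weights called 1507. Groups that do not overlap were 2.10% of genes for aN1aN2, and 0 of the 5.

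A ratio to Pax8 in the same library does not depend on the scaling between libraries. These ratios were chosen after the values were seen and are given without a test. Tshr to Pax8 was 0.598, 0.508, 0.651, 0.502 and 0.289 in RW at 5 days. It was 0.224, 0.164, 0.335, 0.172 and 0.144 in aJ1aJ2, where 4 of 5 libraries lay below the lowest RW value. In aN1aN2 it was 0.205, 0.272, 0.125, 0.165 and 0.161, with no overlap with RW and a mean 2.75-fold lower. The low-Tg library RW replicate 3 had the highest ratio of its group, so the lack of overlap with aN1aN2 does not rest on it. That library does raise the RW mean behind the 2.75-fold difference. Tshr was 1 of 93 genes, 0.505% of those tested, whose ratio to Pax8 was lower without overlap under aN1aN2. For aJ1aJ2 0 of the 4 ratios had groups apart, beside 0.461% of genes that were lower in that way.

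**Figure D4:**
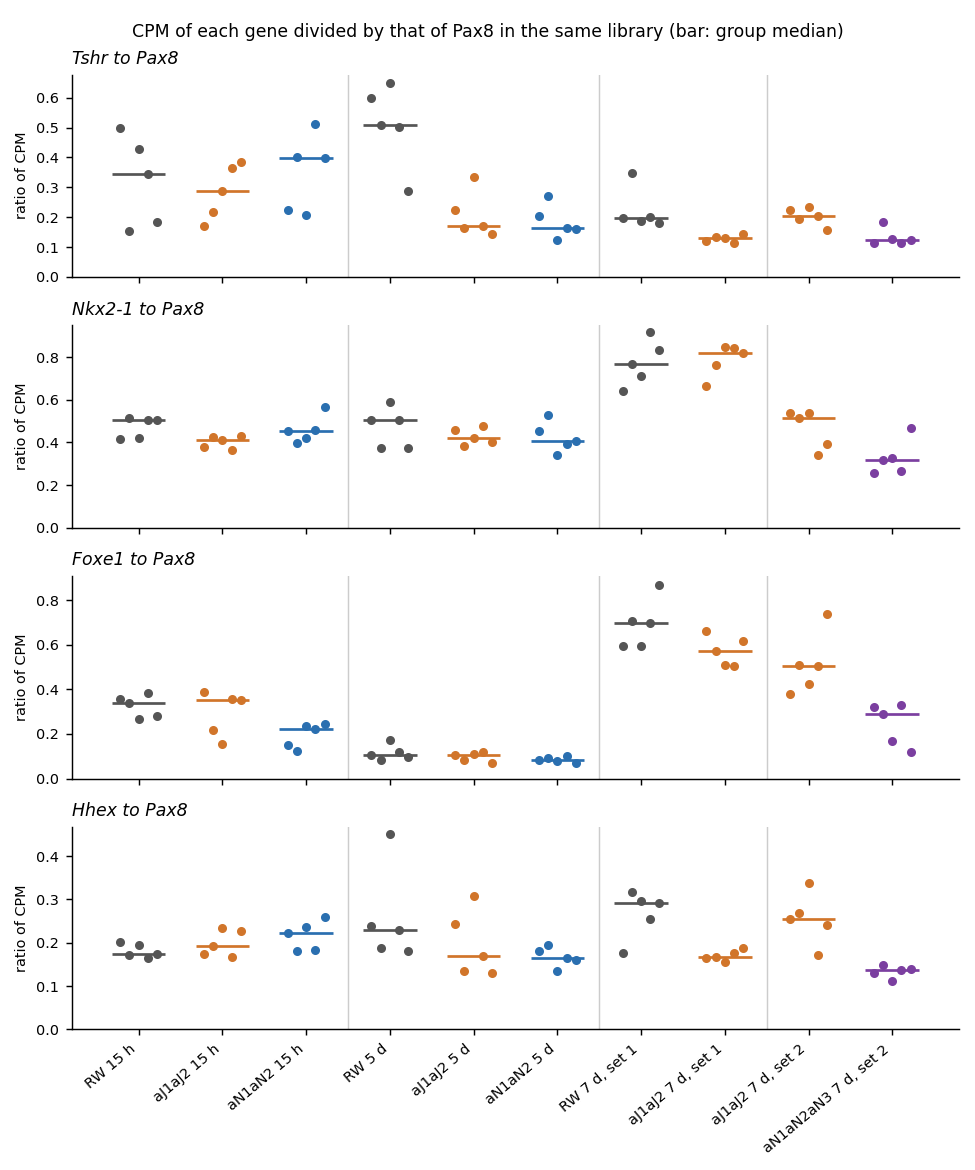
CPM of Tshr, Nkx2-1, Foxe1 and Hhex divided by that of Pax8 in the same library (panels), with 1 point per library and a bar at the group median. Tshr to Pax8 is lower under aN1aN2 than under RW at 5 days and under aJ1aJ2 than under RW at 7 days, without overlap.

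At 7 days in the first set Tshr was again lower under aJ1aJ2, short of a call, with TMM-scaled groups just apart. RW read 73.0, 121, 64.1, 76.8 and 75.6 CPM and aJ1aJ2 63.8, 21.0, 50.1, 40.9 and 46.4. The highest antibody library lay just under the lowest control library, and in the deposited FPKM the same libraries crossed, at 0.412 and 0.406. The log2 change was -0.89 (SE 0.27, 95% interval -1.48 to -0.30), and the edgeR adjusted p was 0.233. Hhex read 65.7, 109.7, 101, 97.6 and 122 CPM in RW and 86.3, 26.1, 59.6, 63.6 and 60.5 in aJ1aJ2. All 5 treated libraries were below the RW mean of Hhex, with overlap through RW replicate 1, and its log2 change was -0.75 (SE 0.27, edgeR adjusted p = 0.331). Pax8 (-0.09, SE 0.26), Nkx2-1 (-0.09, SE 0.26) and Foxe1 (-0.36, SE 0.30) stayed near control.

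In that set edgeR called 0% of 16954 genes and none of the 5, with 1968 genes at an unadjusted p under 0.05. Values of aJ1aJ2 and RW were fully apart in 3.59% of genes, lower under aJ1aJ2 in 1.91%, and in 1 of the 5, Tshr. Quality weights in limma called Tshr at -0.77 (adjusted p = 0.0493) among 621 genes. Tshr to Pax8 did not overlap between groups either, with 0.181 to 0.349 in RW and 0.113 to 0.144 in aJ1aJ2, as it did for 0.507% of genes in that direction. Hhex to Pax8 had 4 of 5 aJ1aJ2 libraries below the lowest RW value, at means of 0.170 and 0.267. Skeletal muscle genes summed to 3861 to 122708 CPM in aJ1aJ2 and 1501 to 25160.4 in RW, and with them as a covariate the edgeR estimate for Tshr was -0.64 (adjusted p = 0.270).

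The change of aJ1aJ2 effects with time was tested directly and called for none of the 5 genes. From 15 hours to 7 days the effect on Hhex moved by -1.20 (SE 0.40, edgeR adjusted p = 0.228) and that on Tshr by -0.97 (SE 0.61, edgeR adjusted p = 0.576). From 15 hours to 5 days the effect on Tshr moved by -1.14 (SE 0.91, edgeR adjusted p = 0.715), beside calls in 0.636% of genes. The epithelial covariate, chosen after seeing the data, called the Hhex change to 7 days, at -1.17 (edgeR adjusted p = 0.0294). For that change 20 to 380 genes in all were called over the alternatives. The aN1aN2 effect on Foxe1 moved by 1.16 (SE 0.91) from 15 hours to 5 days (edgeR adjusted p = 0.610), beside calls in 1.80% of genes. For 7 days, calls were made in 0.314% of genes.

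In the second 7-day set Pax8 rose under aN1aN2aN3 relative to aJ1aJ2, in a comparison with no isotype control. It read 391, 448, 339, 471 and 245 CPM against 201, 192, 233, 183 and 271. All 5 aN1aN2aN3 libraries exceeded the aJ1aJ2 mean, and the groups overlapped through 1 library on each side. The log2 change was 0.78 (SE 0.21, 95% interval 0.33 to 1.23; edgeR adjusted p = 0.0222). Tshr (0.19, SE 0.24), Nkx2-1 (0.21, SE 0.19), Foxe1 (-0.22, SE 0.42) and Hhex (-0.15, SE 0.26) were not called. The count of 1 of 5 stands beside 19.6% of 18450 genes called, so it is near the background share. None of the 5 had groups apart, beside 15.0%.

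The Pax8 call was lost without aN1aN2aN3 replicate 2 (0.71, adjusted p = 0.0597) or 4 (0.70, adjusted p = 0.0569) and without aJ1aJ2 replicate 1 (0.76, adjusted p = 0.0528) or 2 (0.75, adjusted p = 0.0542), all in edgeR. With the epithelial covariate the edgeR change was 0.67 (adjusted p = 0.108), and in a fit of all 50 libraries 0.81 (adjusted p = 0.278). Follicular epithelial markers summed to 28263 to 48737 CPM under aN1aN2aN3 and 12194 to 24699 under aJ1aJ2, a sum that is mostly Tg, and 2 of the 7 (Tg and Cldn3) were called higher. C cell genes summed to 22227 to 36526 and 7170.3 to 18412 CPM, with 3 of 7 called higher. Fat genes summed to 214 to 1072 against 2224 to 3814 CPM, with 4 of 7 called lower. The part of these lists in the Pax8 result, beyond that covariate, was not tested.

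Relative to Pax8, the other factors were lower under aN1aN2aN3. Foxe1 to Pax8 was 0.321, 0.288, 0.168, 0.328 and 0.121, against 0.379, 0.509, 0.426, 0.504 and 0.739 under aJ1aJ2. Hhex to Pax8 was 0.131, 0.148, 0.112, 0.138 and 0.140, against 0.254, 0.269, 0.337, 0.171 and 0.240. Neither pair of groups overlapped. Tshr and Nkx2-1 had 4 of 5 libraries below the lowest aJ1aJ2 value. Of all tested genes 23.5% were lower relative to Pax8 without overlap, and all these ratios share Pax8, which itself rose, as denominator.

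The aJ1aJ2 group at 7 days exists in both sets, which allows the sets to be compared under 1 treatment. Nkx2-1 read 350.5, 119, 325, 304 and 265 CPM in the first set and 108, 98.7, 126, 62.6 and 107 in the second, with overlap only through first-set replicate 2. Its log2 difference, second minus first, was -1.40 (SE 0.25, edgeR adjusted p = 6.07e-05). Pax8 was lower in the second set by -0.66 (SE 0.25, edgeR adjusted p = 0.0242), and Foxe1 differed by -0.81 (SE 0.39, edgeR adjusted p = 0.0770). Tshr (-0.00, SE 0.27) and Hhex (-0.05, SE 0.29) had estimates near 0. These 2 calls of 5 stand beside 64.0% of 19570 genes, and 0 of 5 had groups apart, beside 43.6%.

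The scaling matters for this comparison. With total counts alone the median of all genes moved from 0.09 to 0.52, the share of calls that were higher went from 53.3% to 69.6%, and Tshr, Hhex and Pax8 read 0.45, 0.41 and -0.22, none called by edgeR (adjusted p = 0.196, 0.270 and 0.489). Nkx2-1 kept its call at -0.94 (edgeR adjusted p = 0.00819). The Pax8 call was also lost without first-set replicate 1 (-0.47, edgeR adjusted p = 0.102) and without second-set replicate 2 or 4 (-0.63 and -0.60, edgeR adjusted p = 0.0527 and 0.0508), while Foxe1 was called without first-set replicate 2 (-1.02, edgeR adjusted p = 0.0261), second-set replicate 5 (-1.08, adjusted p = 0.0196) or aN1aN2aN3 replicate 5 (-0.82, adjusted p = 0.0393). Tg alone read 108659.6 to 392048 CPM in the first set and 10587 to 23315 in the second. Of all 7 epithelial markers 1 was called higher and 3 lower, with a median of -0.05, and their part in the differences was not tested. Nkx2-1 to Pax8 held at group means of 0.774 and 0.788 in the first set and 0.466 for aJ1aJ2 in the second, with no overlap between the aJ1aJ2 sets, beside 8.75% of genes lower in that way. Tshr to Pax8 was higher in the second set without overlap, at 0.202 against 0.129, beside 18.9% of genes.

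Genes that act with the receptor were read from lists of its ligands, signalling and targets. The ligand subunits were nearly absent, with 32 counts of the TSH beta subunit gene Tshb over all libraries, 124 of the shared alpha subunit gene Cga, and 135 and 35 of the thyrostimulin genes Gpha2 and Gphb5. None of the 4 was tested against RW for lack of counts. In the second 7-day set Cga averaged 0.423 CPM in aJ1aJ2 and 0.492 CPM in aN1aN2aN3, a log2 change of 0.19 (edgeR adjusted p = 0.878). In the first-set aJ1aJ2 libraries Cga had 0 counts, so no fold is given for its call between the sets.

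All 23 signalling genes downstream of Tshr were tested. In the 5 comparisons with RW only Arrb2, a beta-arrestin that desensitises receptors, was called, 1 of 23 beside 1.68% of all genes. It was 18.4 ± 1.56 CPM in aN1aN2 at 15 hours and 13.8 ± 1.04 in RW, a log2 change of 0.41 (SE 0.09, edgeR adjusted p = 0.0283), across 2 runs of sample IDs. Within 1 run, aJ1aJ2 at 15 hours had 15.6 to 17.6 CPM of Arrb2 and RW 12.7 to 15.3, without overlap and not called (log2 change 0.30, SE 0.09, edgeR adjusted p = 0.298). Groups did not overlap in 1.72% of all genes there. The list's median log2 changes of 0.05, 0.01, 0.05, -0.09 and 0.02 (aJ1aJ2 and aN1aN2 at 15 hours, the same at 5 days, aJ1aJ2 at 7 days) lay close to -0.03, 0.01, -0.06, -0.07 and 0.01 for all genes. Crem, a cAMP-responsive transcription factor, had the smallest p of the list in 3 comparisons, with -0.67 and -0.70 at 5 days and -0.55 at 7 days, and was not called (edgeR adjusted p = 0.295, 0.323 and 0.165). At 7 days its 5 aJ1aJ2 libraries, 13.0 to 18.9 CPM, lay below the RW libraries, 19.7 to 26.0, as in 1.91% of all genes. Away from RW, Crem was called at -0.90 between aN1aN2aN3 and aJ1aJ2 (edgeR adjusted p = 0.0215). It was also called at 1.73 between the aJ1aJ2 sets (edgeR adjusted p = 4.42e-07). Calls in these 2 comparisons covered 19.6% and 64.0% of all genes.

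Between aN1aN2aN3 and aJ1aJ2, 3 of 23 signalling genes rose and 4 fell, beside 19.6% of all genes called, with a list median of -0.13 beside -0.07 for all genes. The beta-arrestin gene Arrb1 rose by 1.21 (SE 0.15, edgeR adjusted p = 0.000935) and the CREB coactivator gene Crtc2 by 0.99 (SE 0.20, edgeR adjusted p = 0.00635). Prkar2b, a regulatory subunit of protein kinase A that is abundant in fat, changed by -3.10 (SE 0.53, edgeR adjusted p = 0.00431), and Creb1 by -0.83 (SE 0.22, edgeR adjusted p = 0.0211). Between the aJ1aJ2 sets 3 rose and 12 fell, a share near the 64.0% of all genes called there, with Adcy6 at -3.68, Arrb1 at -2.75, Gnaq at -1.54 and the gene of the stimulatory G protein, Gnas, at 2.86.

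Of 14 development and partner factors 13 were tested, and none was called against RW or between aN1aN2aN3 and aJ1aJ2. Glis3, a zinc-finger factor needed for hormone synthesis, had the smallest p in 2 comparisons. It was 29.6 ± 12.0 CPM in aN1aN2 and 80.2 ± 40.0 in RW at 15 hours (log2 change -1.44, edgeR adjusted p = 0.116). These groups lie in 2 runs of sample IDs, so antibody and run cannot be told apart there. In the first 7-day set it was 16.5 to 45.9 CPM in aJ1aJ2 and 61.5 to 106 in RW, without overlap (log2 change -1.11, SE 0.25, edgeR adjusted p = 0.161). There 1.91% of all genes were lower without overlap. Tbx1 (-1.26 for aJ1aJ2 at 15 hours, edgeR adjusted p = 0.790) and Hoxa3 (0.64 and 0.66 at 5 days, edgeR adjusted p = 0.287 and 0.322) had the smallest p in 3 others, and Isl1 (0.42, edgeR adjusted p = 0.224) between aN1aN2aN3 and aJ1aJ2. Between the aJ1aJ2 sets 1 of 13 rose (Isl1, 0.66) and 5 fell, beside 64.0% of all genes called, among them Yap1 at -2.39, Hoxa3 at -1.89 and Glis3 at -1.16.

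Among 14 known targets of the factors, none was called against RW, though most estimates were negative. Below 0 were 9 of 14 for aJ1aJ2 and 13 of 14 for aN1aN2 at 15 hours, 12 of 13 for each antibody at 5 days, and 10 of 13 for aJ1aJ2 at 7 days. The list medians were -0.07, -0.40, -0.45, -0.27 and -0.26, next to all-gene medians no farther from 0 than -0.07. Epithelial markers were below 0 in 6 of 7 (aJ1aJ2) and 7 of 7 (aN1aN2) at 5 days, with medians of -0.36 and -0.25, and fat genes were above 0 in 7 of 7 for both. Their part in the targets' estimates was not tested. The iodide transporter gene Slc5a5 read 80.2 ± 37.1 CPM in aN1aN2 and 227 ± 130.5 in RW at 15 hours (log2 change -1.51, SE 0.43, edgeR adjusted p = 0.0976), across the same 2 runs. It also had the smallest p for aN1aN2 at 5 days (-1.09, SE 0.90, edgeR adjusted p = 0.824). Cdh16, a kidney and thyroid cadherin, was 304 ± 108 CPM in aJ1aJ2 and 506 ± 95.3 in RW at 7 days (log2 change -0.74, SE 0.29, edgeR adjusted p = 0.366). The chloride channel gene Ano1 had the smallest p for aJ1aJ2 at 15 hours (-0.49, edgeR adjusted p = 0.715) and at 5 days (0.55, edgeR adjusted p = 0.509).

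Tg and Slc5a5 went opposite ways between aN1aN2aN3 and aJ1aJ2. Tg rose by 1.31 (SE 0.31, edgeR adjusted p = 0.0137), as Pax8 did, and Slc5a5 fell from 65.3 ± 17.2 to 17.7 ± 13.0 CPM (log2 change -1.91, SE 0.46, edgeR adjusted p = 0.0165). Of the 13 tested targets 1 was called higher and 1 lower, beside 19.6% of all genes called, and their median was -0.75. Between the aJ1aJ2 sets 4 of 13 targets rose and 6 fell, beside 64.0% of all genes called, with Tg at -4.29, the oxidase gene Duox2 at -3.02 and Cdh16 at -1.81.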

How the data were processed

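RNA of 50 thyroid libraries was sequenced as 50 bp single-end reads. The authors deposited raw counts per gene, and FPKM per gene. GSNAP and limma are listed without versions per the submitters' processing notes. No source used here gives the genome build, annotation or strand setting of the counts. Counts divided by the deposited FPKM gave the gene length behind each value: of 16816 genes whose exons cover under 50% of their GENCODE M21 span, 89.5% matched the span within 5% and 0.137% the exon length. FPKM therefore served only as an alternative within the 2 blocks of 30 and 20 libraries that share a scale.

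Symbols came from GENCODE M21 by ID (52403 of 52636 genes). edgeR 4.0.16 in R 4.3.3 was fitted to counts of all genes passing filterByExpr (minimum count 10, minimum total 15) with TMM scaling, a robust quasi-likelihood test and Benjamini-Hochberg adjustment over all genes tested, called below 0.05. The 15-hour, 5-day and each 7-day set were fitted apart, and contrasts across them jointly. Correlations used log2 CPM (prior count 1). Sequences came from RefSeq. On simulated counts of 18296 genes for aJ1aJ2 against RW at 15 hours, edgeR recovered 35 of 100 changes of 2-fold and 77 of 100 of 4-fold, with 4 false calls. Depth was 15.3 to 52.8 M counts.

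The 5 genes and all lists were chosen with earlier results of these data known. Named besides the 5 genes are, per pathway list, up to 4 called genes with the smallest p, or else the 1 with the smallest p, and for each of the 5 genes the 3 with the highest correlation. One gene that this rule names is not reported here. Alternatives were RLE and total-count scaling, Tg removed, no filter, composition covariates, a replicate block, other sets of libraries, DESeq2 1.42.0, limma 3.58.1 with library quality weights and on log2 (FPKM + 0.1), and leaving out each library.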

Additional observations from a re-analysis of the deposited data

Results flagged for a closer look

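In 50 groups of 5 libraries (5 genes in 10 groups), 7 held a value whose gap to its neighbour took most of the range of the group, and chance flags about 1 in 20 groups. RW 5 days replicate 3, the library with the least Tg, was the lowest of its group for all 5 genes, and its gap passed the limit for 3. It had 4.47 CPM of Nkx2-1 (next lowest 142), 1.32 CPM of Foxe1 (next lowest 30.3) and 3.40 CPM of Hhex (next lowest 69.2), beside 4.93 CPM of Tshr (next lowest 127) and 7.57 CPM of Pax8 (next lowest 291), whose gaps did not pass it. Tshr was high in aN1aN2 15 hours replicate 4, with 214 CPM (next highest 91.9), and in RW 7 days replicate 2, with 121 CPM (next highest 76.8). Pax8 was low in aJ1aJ2 15 hours replicate 3, with 234 CPM (next lowest 488). Foxe1 was high in the second-set aJ1aJ2 7 days replicate 5, with 200.3 CPM (next highest 99.1).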

How the results depend on the processing

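The median r over the 10 gene pairs was 0.919, and 0.865 to 0.933 when each library was left out in turn. It was 0.796 without centring on group means, 0.842 without the 2 farthest libraries, and 0.881, 0.866, 0.981 and 0.712 in the first 7-day set, RW and aJ1aJ2 at 15 hours, aN1aN2 at 15 hours with 5 days, and the second 7-day set. The epithelial covariate gave 1 called gene in place of 0 for aN1aN2 at 15 hours and for the aJ1aJ2 change from 15 hours to 7 days. Quality weights gave 1 in place of 0 for both antibodies at 5 days and aJ1aJ2 at 7 days, where they called 3475, 1507 and 621 genes in all. For aN1aN2aN3 against aJ1aJ2 the count of 1 went to 0 with the epithelial covariate, the replicate block and a fit of all 50 libraries (Pax8 0.81, edgeR adjusted p = 0.278), and was 0 to 1 with each library left out. Between the aJ1aJ2 sets the count of 2 went to 1 with total counts, the replicate block, only the 2 groups compared, all 50 libraries and FPKM, was 3 with quality weights, and was 1 to 3 with each library left out. Deviations of same-numbered libraries correlated at -0.569 to 0.748 over all comparisons, with negative and positive values in each. Libraries of unlike number were not compared, so whether replicate numbers pair the libraries was not settled. With the replicate block Pax8 was 0.76 for aN1aN2aN3 (edgeR adjusted p = 0.0979) and -0.62 between the sets (edgeR adjusted p = 0.0554), and no other call on the 5 genes changed. Counts of all genes called varied more: 106 (36 to 318 over alternatives) and 311 (186 to 935) for aJ1aJ2 and aN1aN2 at 15 hours, 33 (0 to 3475) and 0 (0 to 1507) at 5 days, 0 (0 to 621) for aJ1aJ2 at 7 days, 3614 (2100 to 8214) for aN1aN2aN3, and 12530 (10602 to 15137) between the sets. For changes with time they were 123 (25 to 3200) and 348 (198 to 1778) to 5 days, and 58 (20 to 380) to 7 days. With total counts alone the median of all genes at 5 days became 0.16 and 0.11, and calls for aJ1aJ2 there were 12 higher and 4 lower, against 14 and 19. For aN1aN2aN3 the calls were then 1815 higher and 1198 lower, against 1696 and 1918. FPKM was not run for aN1aN2 at 15 hours or its change with time, which cross scales. Covariates, totals, the set without 2 low-Tg libraries and single-library omissions for r were chosen after seeing the data.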
